A study of Mus musculus with 32 samples.

Results

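The change in m6A immunoprecipitation that came with loss of Mettl14 was examined in mouse livers after partial hepatectomy, gene by gene, as the level in an immunoprecipitated (IP) library over the level in the input library of the same animal. Genes were kept where the mean input level was 50 CPM (counts divided by the library total, on a shared scale) or more in the hepatectomised KO animals and also in the hepatectomised flox animals, which left 2077 genes of the 55421 in the table. Of these 1994 carried a symbol and 1963 were protein-coding. They held 73.8% to 74.7% of the counts of a KO IP library, against 79.5% to 82.4% of a flox IP library, and 76.6% to 81.5% of a KO input library, against 82.5% to 83.7% of a flox input library. Nearest to the limit of 50 CPM, Eif4enif1 and Erp44 were inside, at 50.1 and 50.3 CPM in the lower of the 2 groups, and Mlec and Hdgf were just outside, at 49.9986 and 49.9984 CPM.

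The hepatectomised KO group was 4 animals labelled Mettl14 KO, of 73, 73, 73 and 72 days, and the hepatectomised flox group was 4 animals with the floxed gene, of 73, 73, 72 and 72 days. Sham-operated KO animals (4, aged 72 to 73 days) and sham-operated flox animals (4, aged 71 to 77 days) were used for a second comparison. RNA of each liver gave an input library, from a stranded mRNA kit, and an IP library, for which RNA was broken to short fragments, pulled down with an antibody against m6A and made into a library with another kit. The labels give neither the Cre driver or the cells it acts in, nor the time between surgery and sampling, nor whether both genotypes were littermates.

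N6-methyladenosine (m6A) is a methyl mark that is added to adenosines of nascent RNA in the nucleus by a complex of METTL3, which holds the catalytic site, and METTL14, which binds the RNA. The mark lies mostly in long internal exons and around stop codons, and reader proteins of the YTH family tie it to RNA splicing, translation and decay. Hepatocytes, the main cells of the liver, make most plasma proteins, bile acids and drug-metabolising enzymes, and divide again when part of the organ is removed. The series design names its groups by surgery and genotype, and the comparison below asks which transcripts were pulled down less or more by the m6A antibody, relative to input, when Mettl14 was deleted.

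The hepatectomy IP libraries had totals of 7133766 to 19509035 counts and the inputs 10566456 to 12533931. The IP library of KO replicate 4 was the shallowest, with 7133766 counts, and 73 of the 2077 genes were at 0 in it, against 2 to 7 in the other KO IP libraries. Mettl14 itself gave no check of the labels, since its count was 0 in all 8 inputs and 0, 60, 0 and 0 in the KO IP libraries, against 33, 0, 22 and 9 in the flox IP libraries. The 12 hepatocyte marker genes summed to 18159 to 42356 CPM in KO IP libraries, below the 47095 to 59988 CPM of flox IP libraries, and to 51192 to 62134 CPM in KO inputs, which overlapped the 58008 to 63535 CPM of flox inputs. Markers of other cells ran the other way in IP: macrophage markers summed to 665 to 1417 CPM in KO and 467 to 749 CPM in flox IP libraries, endothelial markers to 500 to 1158 CPM in KO and 365 to 665 CPM in flox, and stellate cell markers to 735 to 1001 CPM in KO and 290 to 437 CPM in flox. The macrophage and endothelial ranges overlapped between genotypes, and the stellate cell ranges did not. Of the 12 macrophage markers, Adgre1, Cd68, Marco and Timd4 were at 0 in every flox input, and of the 11 stellate cell markers Acta2, Pdgfrb and Hhip were. In bulk tissue fewer cells of a type and less RNA per cell cannot be told apart, and the part of the cell mix in the changes below was not tested. The dividing-cell marker Mki67 had IP levels of 416, 344, 251 and 383 CPM in hepatectomised flox livers. In sham flox livers they were 1.91, 30.8, 84.6 and 12.8 CPM. Inputs of the gene overlapped, at 134, 414, 241 and 179 CPM after hepatectomy and 112, 365, 479 and 90.8 CPM after sham surgery. Whether inputs follow the RNA level of a liver, on which the ratios rest, was not tested.

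Loss of Mettl14 after hepatectomy went with lower IP over input for a set of liver transcripts with high counts. By edgeR's quasi-likelihood test, with Benjamini-Hochberg adjustment over the 14328 genes tested and a threshold of 0.05, 35 of the 2077 genes were lower in KO and 1 was higher. That is 1.69% of the 2077 genes lower, against 0.705% of all genes tested, and 0.0481% higher, against 0.00698%. The other 66 genes called lower all had a mean flox input level under 1 CPM, so that their ratios had nearly no flox input under them. These calls come from a fit that does not pair the IP and input library of an animal. With the animal as a replicate block edgeR called 42 lower and 0 higher. P-values of that fit did not follow the spread between animals in Apob, whose groups overlapped (exact permutation p = 0.11). Its adjusted p there was 7.7e-62, against 0.74 in the limma fit described next. Calls of the replicate block are therefore not read as support from paired animals. The limma fit on per-animal ratios, which also holds the animal as a replicate block, called 4 and 0 when adjusted over the 2077 genes alone, or 0 and 0 with a pseudocount of 5 CPM. Of the 35 genes 3 passed in that limma fit at a pseudocount of 1 CPM, Cyp8b1, Serpina1e and Mup11, while the limma change was below 0 in all 35. The other of the 4 was Sult2a8, a sulfotransferase gene named after its value was seen (limma adjusted p = 0.036, and 0.06 by edgeR). Fga had a limma adjusted p of 0.59, Egfr one of 0.23 and Apoa1 one of 0.68. The calls of the other 32 lower genes and of the 1 higher gene are lost in the limma fit.

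Among the 35 genes were Elovl3, Cyp8b1, Mup11, Saa2, Gm8893, Serpina1e, Saa1, B3galt1, Aqp9, G6pc, Mup3, Saa4, Slco1b2, Acsl1, Cyp2e1, Egfr, Slc27a2, Slc25a47, Hp, Serpina3k, Steap4, Hnf4a, Rnase4, Serpina3n, Fga, Serpina1d, Hrg, Pck1, Apoa1, Fgb, Errfi1, Pigr, Apob and Apoe. Of these Gm8893, Saa1, Steap4, Rnase4, Errfi1 and Pigr are named outside the rule for named genes, after their values were seen.

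The level from which changes are read depends on the scaling of libraries. With TMM factors the median log2 change was -0.99 over all genes tested and -0.62 over the 2077, of which 1527 (73.5%) were below 0. Without TMM factors the median of the 2077 was -0.05 and that of all genes -0.46, with upper-quartile factors 0.38 and -0.14, and with DESeq2's size factors 0.09 and -0.32. The numbers lower and higher were 35 and 1 with TMM factors, 3 and 1 with upper-quartile factors and 27 and 8 by DESeq2. All 35 lower genes lay below the median of the 2077 genes, 30 of them by 1 or more on the log2 scale, and changes below are therefore also read against that median of -0.62.

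**Figure D1:**
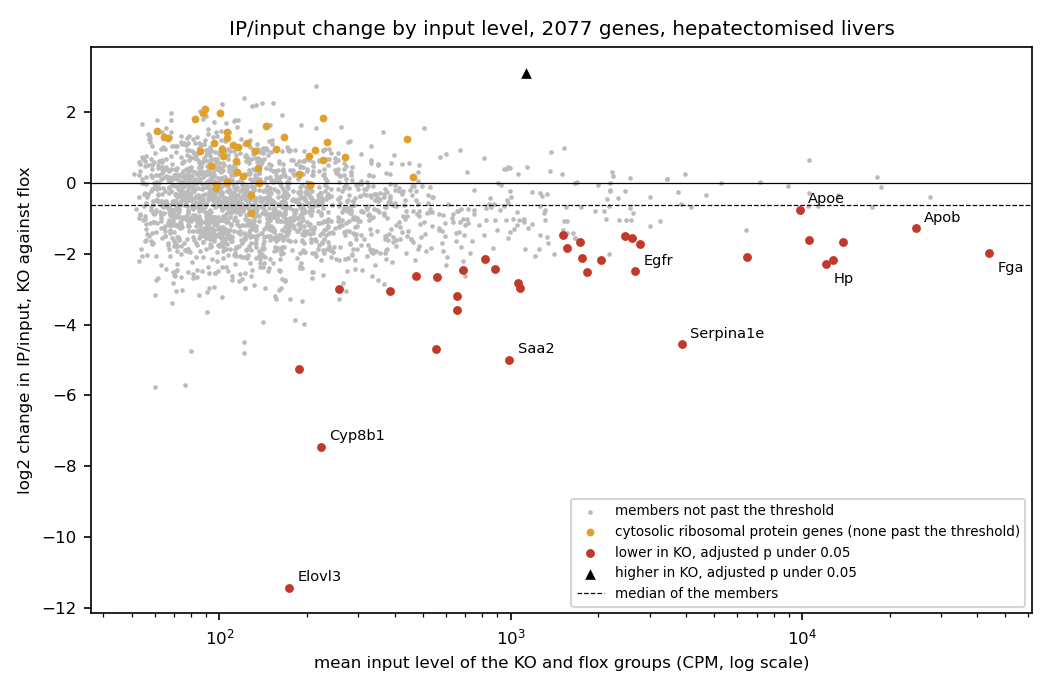
Log2 change in IP/input, KO against flox, of each of the 2077 genes against its mean input level in CPM (log scale). Points of the 35 lower genes lie mostly at the right, at high input levels. The 1 higher gene is the triangle, and the ribosomal protein genes lie mostly above the dashed median line of -0.62.

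The calls came mostly from genes with high counts. Among 108 genes with a mean input of 1000 CPM or more, 21 were lower, and among 91 genes of 500 to 1000 CPM, 8 were. From 200 to 500 CPM 4 of 400 genes were lower, from 100 to 200 CPM 2 of 782, and from 50 to 100 CPM 0 of 696 by edgeR. The median standard error of a log2 change was 0.40 in the highest of these classes and 1.98 in the lowest, where 431 of the 696 genes had a count of 0 in at least 1 of the 8 inputs. In all, 629 genes (30.3%) had such an input although their group means passed 50 CPM, in 17 to 44 genes per KO input and 116 to 234 per flox input. Of the called genes this touched Elovl3 alone. Differences in genes under about 200 CPM were for the most part not detectable in these libraries. The hepatectomy inputs held 4462 to 8278 genes with at least 10 counts, and the cause of the inputs at 0 was not tested.

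Fibrinogen, the precursor of the fibrin clot, is a hexamer of the Fga, Fgb and Fgg products, and its genes neighbour each other on chromosome 3. Fga (ENSMUSG00000028001, 83026076 to 83033627, plus strand; positions throughout are those of the table, whose build no source used here gives) had 14807, 15777, 9708 and 23952 CPM in KO IP libraries, against 62855, 59303, 51349 and 36965 CPM in flox IP libraries. Its log2 IP/input, from CPM with 1 added, was -1.36, -0.97, -2.20 and -0.82 in KO livers, against 0.19, 0.18, 0.21 and -0.28 in flox livers, so every KO animal was below every flox animal. The change was -1.98 (SE 0.28, adjusted p = 7.3e-06), or -1.36 against the median of the 2077 genes. In sham flox livers the Fga ratios were -0.71, -1.18, 0.03 and -1.16, so replicates 2 and 4 there lay within the hepatectomised KO range. Its sham change was -0.27 (edgeR adjusted p = 0.93). Fgb (83040141 to 83049863, minus strand) had ratios of -1.28, -0.75, -1.72 and -1.07 in KO livers, against -0.17, 0.13, -0.35 and -0.41 in flox livers, and fell by 1.62 on the log2 scale (adjusted p = 0.00018). Fgg overlapped between groups, with -1.29, -1.12, -2.11 and -0.50 in KO livers, against -0.20, 0.07, -0.63 and -0.92 in flox livers. Its change of -1.34 had an adjusted p of 0.0505 and did not pass, while a fit with the animal as a replicate block gave -1.40 with an adjusted p of 5.9e-07 and limma on per-animal ratios gave -0.84 with an adjusted p of 0.79. In inputs Fga averaged 38848 ± 5984 CPM in KO and 49144 ± 5393 CPM in flox (SD, n = 4 each), a smaller difference than in IP.

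Of 24 other genes of clotting, the kinin system and fibrinolysis, 1 was lower and 9 had an unadjusted p under 0.05. The median change was -1.19. Counts at an unadjusted p under 0.05, here and in the lists below, come without the share of all genes tested at that level. Hrg, histidine-rich glycoprotein of plasma, had ratios of -1.34, -0.39, -2.32 and -0.30 in KO livers, against 0.27, 0.00, 0.44 and 0.16 in flox livers, and fell by 1.72 (SE 0.41, adjusted p = 0.031). Kng1, the kininogen precursor, had a change of -1.46 (adjusted p = 0.063), with overlapping groups. Itih4, an inter-alpha-inhibitor heavy chain, had -1.29, -0.74, -1.29 and -0.71 in KO livers, against -0.10, 0.06, -0.59 and -0.87 in flox livers (change -1.21, adjusted p = 0.064).

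Acute phase genes, whose products enter plasma in inflammation and injury, held 7 lower genes among 20 members, with 12 at an unadjusted p under 0.05 and a median change of -1.97. Serpina3k had 4449, 4719, 3124 and 6969 CPM in KO IP libraries, against 15704, 16136, 18791 and 22665 CPM in flox IP libraries. The ratios of this serine protease inhibitor were -1.42, -0.89, -1.88 and -0.92 in KO livers, against 0.27, 0.06, 0.45 and 0.64 in flox livers, and the change was -2.19 (SE 0.28, adjusted p = 3.8e-07). Serpina3n, another gene of the same cluster on chromosome 12, had -1.82, -1.41, -1.87 and -1.11 in KO livers, against 0.06, 0.24, -0.17 and -0.32 in flox livers (change -2.09, adjusted p = 7e-05). In both genes the groups were well apart.

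Haptoglobin (Hp), which binds free haemoglobin, had -2.29, -1.52, -3.21 and -0.72 in KO livers, against 0.45, 0.31, -0.22 and -0.81 in flox livers. KO replicate 4 overlapped flox replicate 4, and the change was -2.29 (adjusted p = 0.00034). The serum amyloid A genes Saa2 and Saa1, which code for apolipoproteins of the acute phase, and the related gene Saa4 were also lower. Saa2 had 5.30, 101, 18.6 and 66.2 CPM in KO IP libraries, against 1764, 1239, 706 and 229 CPM in flox IP libraries, with inputs of 975 ± 104 CPM in KO and 1004 ± 349 CPM in flox (SD, n = 4 each). Its ratios were -7.27, -3.05, -5.66 and -4.03 in KO livers, against 0.53, 0.70, -0.96 and -1.51 in flox livers (change -4.99, SE 1.02, adjusted p = 0.0058). Saa4 had -2.81, -1.23, -3.80 and -0.93 in KO livers, against -0.06, 0.65, 0.36 and 0.60 in flox livers (change -2.83, adjusted p = 0.0074). In Saa1 the groups overlapped through flox replicate 4, at -2.52, and its adjusted p was 0.046. Over the acute phase list the median ratio was -2.28, -1.22, -1.88 and -0.77 in KO livers, against 0.02, 0.15, -0.78 and -1.23 in flox livers, so flox replicates 3 and 4 reached the KO values. In sham livers the list median was -1.32, -0.45, -1.21 and -0.95 in KO, against -1.91, -2.26, -0.69 and -0.74 in flox. Saa2 ratios in sham flox livers were -5.70, -6.93, -0.49 and -0.32, so replicates 1 and 2 there lay within the hepatectomised KO range.

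Of 4 members of the Serpina1 family, which make alpha-1-antitrypsin, the main elastase inhibitor of plasma, 2 were lower. Serpina1e (chromosome 12, 103946931 to 103958975, minus strand) had the lowest adjusted p of the 2077 genes. It had 164, 139.6, 54.8 and 426 CPM in KO IP libraries, against 4183, 4456, 2753 and 4789.7 CPM in flox IP libraries, while its inputs averaged 3287 ± 779 CPM in KO and 4460.0 ± 662 CPM in flox (SD, n = 4 each). The log2 ratio was -3.86, -4.37, -6.21 and -3.13 in KO livers, against -0.19, -0.15, -0.34 and 0.04 in flox livers. The change was -4.55 (SE 0.54, adjusted p = 1e-07). Serpina1d had ratios of -0.86, -0.17, -1.68 and -0.93 in KO livers, against 0.61, -0.12, 0.66 and 0.29 in flox livers (change -1.85, adjusted p = 0.0048), with no overlap although the nearest animals were close. Serpina1c at -1.04 (adjusted p = 0.11) and Serpina1a at -0.80 (adjusted p = 0.23, and 0.20 as the change with upper-quartile factors) did not pass. Gm8893, a predicted gene model between the 2 genes that passed on chromosome 12, had -3.99, -3.35, -5.34 and -3.04 in KO livers, against 0.48, 0.13, 0.82 and -0.20 in flox livers (change -4.70, adjusted p = 0.00034). These genes are near-identical copies, and how reads that match several of them were counted is not given in the sources used here, so the split of the loss among them is uncertain.

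The same reservation holds for the major urinary proteins (Mup), pheromone carriers that the liver sends to urine. Of 9 members, 2 were lower, 4 had an unadjusted p under 0.05, and in 6 every KO animal was below every flox animal. Over all genes tested 0.705% were lower by edgeR, and in 3.41% every KO animal was below every flox animal. The median change of -2.69 was the lowest of the lists described here. Mup3 had 54.5, 131, 22.3 and 182 CPM in KO IP libraries, against 1350.3, 845, 917 and 1186 CPM in flox IP libraries. Its ratios were -3.76, -1.43, -5.17 and -2.03 in KO livers, against -0.31, -0.70, -0.50 and -0.44 in flox livers (change -2.95, SE 0.58, adjusted p = 0.0032). Its input was also lower, at 672 ± 216 CPM in KO and 1487 ± 184 CPM in flox (SD, n = 4 each). Mup11 had -5.14, -4.82, -6.90 and -2.67 in KO livers, against 0.97, -1.59, -0.78 and 1.60 in flox livers (change -5.25, adjusted p = 0.026). Mup7 at -3.87 (adjusted p = 0.089) and Mup14 at -2.69 (adjusted p = 0.16) did not pass, although their animals did not overlap.

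**Figure D2:**
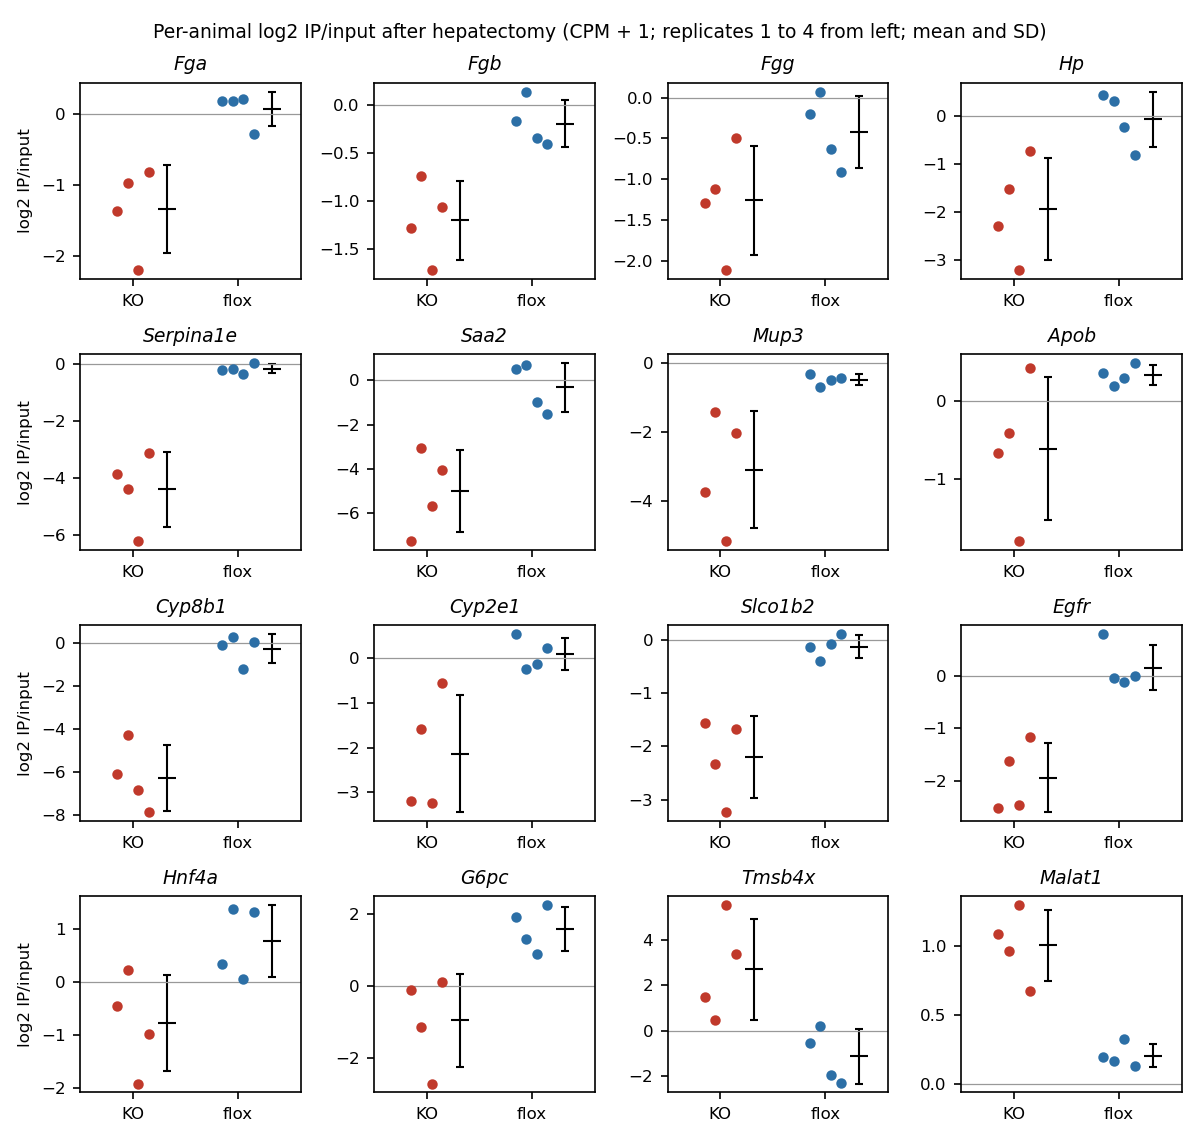
Log2 IP/input of each hepatectomised animal for 16 genes, KO at the left and flox at the right of each panel, replicates 1 to 4 from left to right, with the mean and SD of 4 animals beside them. In Fga, Serpina1e, Cyp8b1 and Egfr the KO animals lie below the flox animals, and in Tmsb4x and Malat1 above them.

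Among 12 genes of apolipoproteins and lipoprotein assembly 3 were lower. Apoa1, the main protein of high-density lipoprotein, had 8764, 8692, 4804 and 11426 CPM in KO IP libraries, against 13451, 18825, 20289 and 23246 CPM in flox IP libraries. Its ratios of -0.63, -0.27, -1.53 and -0.46 in KO livers lay below the -0.09, 0.31, 0.69 and 0.65 of flox livers (change -1.67, SE 0.25, adjusted p = 1.7e-05). Apob, the core protein of low-density lipoprotein, had -0.66, -0.41, -1.79 and 0.42 in KO livers, against 0.35, 0.19, 0.29 and 0.48 in flox livers (change -1.28, adjusted p = 0.021), and its groups overlapped through KO replicate 4. Apoe, a ligand of lipoprotein receptors, was called at -0.75 (adjusted p = 0.046), only -0.13 against the median of the 2077 genes. Its ratios overlapped throughout, with 0.13, 0.67, -0.25 and -0.59 in KO livers, against -0.27, 0.09, 0.65 and 0.06 in flox livers, and with upper-quartile factors its change was 0.27. Apoa5, a regulator of triglyceride breakdown in plasma, had a change of -1.03 (adjusted p = 0.088).

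Other secreted proteins gave fewer calls. Of 10 members among albumin and the plasma carriers edgeR called 0 and DESeq2 0, with 7 at an unadjusted p under 0.05, and the replicate block gave 2 lower. Within that list Ambp, the precursor of alpha-1-microglobulin, had a change of -1.56 (adjusted p = 0.06), and Ttr, the transthyretin that carries thyroid hormone and retinol-binding protein, had -1.07 (adjusted p = 0.061). With the animal as a replicate block Ttr passed (change -1.07, adjusted p = 0.028), whereas in the limma fit on per-animal ratios it did not (adjusted p = 0.89). Of 18 complement genes edgeR called 0 and DESeq2 0, with 6 at an unadjusted p under 0.05, 1 lower with the replicate block and 5 of 18 above the median of the 2077 genes. The lowest in that list was Mbl1, a mannose-binding lectin, at -2.47 (adjusted p = 0.11). Serping1, the C1 inhibitor, had a change of -1.37 (adjusted p = 0.12) with overlapping groups. Rnase4, a secreted ribonuclease, was lower by 2.12 (adjusted p = 0.011), and Pigr, the receptor that moves immunoglobulin A across epithelia, by 1.48 (adjusted p = 0.047, or 0.053 with the replicate block).

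Genes of bile acid synthesis and transport held 2 lower genes among 11 members, 6 at an unadjusted p under 0.05, and a median change of -2.06. Cyp8b1, the sterol 12-alpha-hydroxylase that sets the share of cholic acid, is a gene of 1 exon on chromosome 9 (121914356 to 121916305, minus strand). It had 0.0582, 3.74, 0 and 0 CPM in KO IP libraries, against 284, 266, 189 and 314 CPM in flox IP libraries. Its KO IP libraries held 74 counts in all, against 16348 in flox IP libraries. Of the 74 counts 73 came from KO replicate 2, and the other KO IP libraries held 1, 0 and 0 counts. Inputs were nearer, at 128 ± 73.7 CPM in KO and 317 ± 92.7 CPM in flox (SD, n = 4 each). Log2 ratios were -6.11, -4.26, -6.86 and -7.89 in KO livers, against -0.09, 0.29, -1.22 and 0.04 in flox livers (adjusted p = 0.00085). Slco1b2, a transporter that takes up bile acids and drugs from blood, had -1.55, -2.33, -3.24 and -1.67 in KO livers, against -0.13, -0.40, -0.08 and 0.11 in flox livers (change -2.66, adjusted p = 0.032, or 0.16 with the replicate block). Slc27a5, the bile acid ligase, had a change of -2.97 (adjusted p = 0.13), and Baat, which joins bile acids to taurine or glycine, one of -2.16 (adjusted p = 0.12).

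Of 23 cytochromes P450 and their reductase 1 was lower, 6 had an unadjusted p under 0.05, and the median change was -1.36. Cyp2e1, which oxidises ethanol and paracetamol, had 233, 401, 201 and 993 CPM in KO IP libraries, against 1845, 1513, 2735 and 2182 CPM in flox IP libraries, with inputs of 1675 ± 420.0 CPM in KO and 1994 ± 738 CPM in flox (SD, n = 4 each). Its ratios were -3.19, -1.59, -3.23 and -0.55 in KO livers, against 0.53, -0.25, -0.15 and 0.22 in flox livers. Cyp2c29 at -2.20, Cyp1a2 at -1.98 and Cyp3a13 at -2.59, further enzymes of drug metabolism, had adjusted p-values of 0.063, 0.063 and 0.12. In Cyp2c29 and Cyp3a13 the animals did not overlap, and in Cyp1a2 they did.

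Lipid genes held the largest change. Elovl3, which lengthens fatty acids, lies on chromosome 19 (46131897 to 46135694, plus strand). Its IP counts were 1, 0, 1 and 1 in KO livers, against 1263, 2783, 1278 and 1332 in flox livers, while its input counts were 5389, 780, 2261 and 831 in KO livers, against 0, 2110, 1923 and 3310 in flox livers. The 3 KO counts set against 6656 flox counts gave a ratio of flox over KO of 2126 (95% counting interval 727 to 10310.1). The fitted change of -11.43 (adjusted p = 0.00081) rests on a prior count and is no bound. The flox ratio of replicate 1, at 6.44, came from the input at 0, and the other flox ratios were -0.03, -1.23 and -1.59, still above the -8.70, -6.23, -7.46 and -5.88 of KO livers. It was the only lower gene of 13 in fatty acid and triglyceride synthesis by edgeR. Lpin1, a phosphatidate phosphatase of the same list, had a change of -3.33 (adjusted p = 0.11), which passed with the replicate block (change -4.63, adjusted p = 0.033) but not in the limma fit on per-animal ratios (adjusted p = 0.33). Its ratios were -1.57, -0.64, -2.12 and -6.09 in KO livers, against 5.29, 0.59, 0.50 and 1.13 in flox livers. The IP library of KO replicate 4 held 14 counts of it, and the input of flox replicate 1 was at 0.

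Of 23 genes of fatty acid oxidation and ketogenesis 1 was lower, or 2 with the replicate block, and 6 had an unadjusted p under 0.05. Acsl1, which activates fatty acids with coenzyme A, had 0.24, -0.50, -2.34 and -1.09 in KO livers, against 2.36, -0.00, 2.26 and 0.98 in flox livers (change -2.63, adjusted p = 0.032). KO replicate 1 exceeded flox replicate 2 there. Slc27a2, a transporter and ligase of very long fatty acids, is in none of these lists and had ratios of -1.76, -0.79, -2.75 and -1.31 in KO livers, against -0.28, 0.13, -0.07 and 1.51 in flox livers (change -2.47, adjusted p = 0.018, or 0.082 with the replicate block).

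In gluconeogenesis, glycolysis and glycogen metabolism 3 of 14 genes were lower. G6pc, which releases glucose from its phosphate, had -0.11, -1.14, -2.72 and 0.10 in KO livers, against 1.90, 1.30, 0.88 and 2.24 in flox livers (change -2.99, adjusted p = 0.046, or 0.25 with the replicate block). Pck1, the cytosolic enzyme that commits oxaloacetate to glucose synthesis, had -0.56, -0.04, -1.93 and -1.43 in KO livers, against -0.42, 0.05, 0.85 and 0.41 in flox livers (change -1.67, adjusted p = 0.028). The groups overlapped for Pck1. Slc2a2, the glucose transporter of the hepatocyte membrane, had a change of -3.22 (adjusted p = 0.14), with 1 KO animal at 3.07.

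Nitrogen metabolism gave no call by edgeR. Of 10 genes of the urea cycle and nitrogen handling 0 passed, with 3 at an unadjusted p under 0.05 and 0 called by DESeq2, and of 24 genes of amino acid breakdown 0 passed, with 5 at an unadjusted p under 0.05 and 1 called lower by DESeq2. Glul, glutamine synthetase, had -1.64, -0.44, -1.30 and -1.34 in KO livers, against 0.43, -0.43, 0.67 and 0.79 in flox livers (change -2.09, adjusted p = 0.051). Arg1, the last enzyme of the urea cycle, had a change of -1.07 (adjusted p = 0.12). Gnmt, a methyltransferase that uses up S-adenosylmethionine, had -2.23, -1.05, -1.17 and -1.03 in KO livers, against 1.29, 1.30, 0.07 and 0.11 in flox livers (change -2.48, adjusted p = 0.073), and Cdo1, the cysteine dioxygenase, one of -1.84 (adjusted p = 0.096).

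Receptors and carriers of the hepatocyte membrane were among the lower genes. Egfr, the receptor for epidermal growth factor, a mitogen of hepatocytes, had 425, 579, 451 and 1664 CPM in KO IP libraries, against 3709.6, 2840.5, 2388 and 3303 CPM in flox IP libraries. Its inputs did not separate, at 2609 ± 819 CPM in KO and 2744 ± 494 CPM in flox (SD, n = 4 each). The ratios were -2.51, -1.62, -2.46 and -1.17 in KO livers, against 0.79, -0.05, -0.12 and 0.00 in flox livers (change -2.50, SE 0.45, adjusted p = 0.00081). Errfi1, an inhibitor that Egfr signalling itself induces, was lower by 1.55 (adjusted p = 0.028), with -0.65, -1.21, -1.45 and 0.76 in KO livers, against 0.40, 0.94, 0.28 and 0.52 in flox livers. KO replicate 4 was above 3 of the flox animals in it. Egfr was the lower gene among 9 of the growth hormone and IGF axis, where Ghr, the growth hormone receptor, had a change of -2.22 (adjusted p = 0.08).

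Aqp9, a channel for water and glycerol, had -2.33, -1.52, -2.19 and -1.34 in KO livers, against 1.60, -0.10, 0.33 and 0.88 in flox livers (change -3.05, adjusted p = 0.039, or 0.29 with the replicate block). Its input was higher in KO, at 530.5 ± 86.2 CPM, than in flox, at 239 ± 69.1 CPM (SD, n = 4 each), so the ratio moved through both libraries. Slc25a47, a mitochondrial carrier of liver, had -2.15, -1.30, -3.21 and -1.45 in KO livers, against 0.05, 0.33, -0.00 and -0.25 in flox livers (change -2.42, adjusted p = 0.031). B3galt1, a galactosyltransferase, had -4.24, -3.50, -3.64 and -0.69 in KO livers, against 0.61, 0.37, -0.60 and 0.18 in flox livers (change -3.20, adjusted p = 0.035). Its sham ratios were low in both genotypes, at -2.75 ± 0.33 in KO and -2.74 ± 1.42 in flox livers (SD, n = 4 each). Steap4, a metalloreductase, overlapped, with -2.67, -1.92, -2.75 and -2.29 in KO livers, against -0.34, -0.01, -1.97 and -2.46 in flox livers (change -2.16, adjusted p = 0.037, or 0.13 with the replicate block). Sham ratios of Steap4 were likewise low in both genotypes, at -2.34 ± 0.33 in KO and -2.35 ± 0.63 in flox livers (SD, n = 4 each).

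Of 11 hepatocyte transcription factors 1 was lower by edgeR, 0 by DESeq2, and 11 of 11 changes were below the median of the 2077 genes. Hnf4a, the nuclear receptor that maintains hepatocyte identity, had -0.44, 0.22, -1.91 and -0.99 in KO livers, against 0.34, 1.38, 0.06 and 1.31 in flox livers (change -2.13, adjusted p = 0.04, or 0.11 with the replicate block). Cebpa had a change of -2.18 (adjusted p = 0.074) and Rxra, the partner of many nuclear receptors, one of -1.63 (adjusted p = 0.088). In all 3 genes the groups overlapped.

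The IP and input levels, which make up the contrast, show where the difference of the lower genes lay. In all 35 the mean IP level was lower in KO than in flox, with a median log2 ratio of -1.95 (from -10.68 to -0.30), whereas the input ratio had a median of -0.20 (from -1.31 to 1.15), with 28 of the 35 lower in KO input. Over all 2077 genes the same medians were 0.005 for IP and -0.009 for input. The mean KO ratio of the 35 genes was below 0 in 35 of 35, with a median of -1.65, and the mean flox ratio had a median of 0.22, with 10 of 35 below 0. In each flox animal the median ratio of the 35 genes was above that of the 2077 genes, at 0.27, 0.13, 0.06 and 0.18, against -0.08, 0.00496, 0.04 and -0.07. The 35 genes were chosen on this contrast, which favours low KO and high flox ratios. They lay on 14 chromosomes, 34 were protein-coding, and 27 belonged to the gene lists used here.

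**Figure D3:**
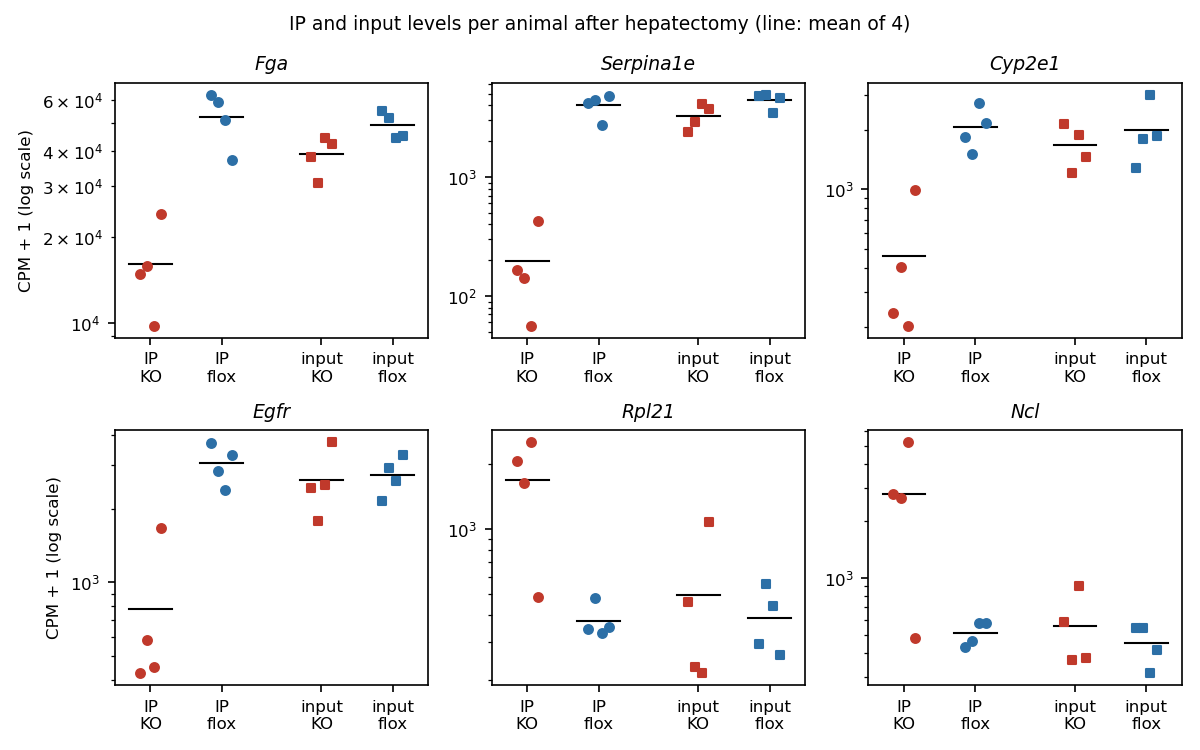
IP levels (circles) and input levels (squares) of each hepatectomised animal in CPM with 1 added, on a log axis, KO left of flox, for 6 genes, with a line at the mean of 4. For Fga, Serpina1e, Cyp2e1 and Egfr the KO IP points lie under the flox IP points while the inputs lie closer together, and for Rpl21 and Ncl the KO IP means lie above the flox IP means.

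Exon length differed too. The summed exon length of the lower genes had a median of 2414 bases, against 5110 bases over the 2077 genes. Lower genes were 10 of the 372 whose longest internal exon was under 200 bases, 8 of 318 from 200 to 400 bases, 12 of 539 from 400 to 1000 bases and 5 of 848 at 1000 bases or more. The median change was -0.79, -0.71, -0.65 and -0.50 in these classes, so genes with long internal exons did not have the lower medians. Input level, which sets what could be called, was not held fixed in these classes.

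The animals were unequal. The lowest KO ratio of a lower gene came from KO replicate 3 in 26 of the 35 genes, from replicate 1 in 7, from replicate 4 in 2 and from replicate 2 in 0. The median ratio of the 35 genes was -1.76, -1.23, -2.52 and -1.07 in KO livers, and every KO median was below every flox median. Their choice on the KO against flox contrast of these same animals favours that separation. The SD between animals was larger in KO for 30 of the 35 genes, with a median of 0.91 in KO and 0.43 in flox. Without KO replicate 3 15 genes were lower, 14 of them among the 35, and without KO replicate 4, the shallow library, 32 were lower, 22 of them among the 35. Without KO replicate 1 20 were lower, and without flox replicate 1 22. Elovl3, Cyp8b1, Saa2, Gm8893, Serpina1e, Mup3, Cyp2e1, Egfr, Hp, Serpina3k, Serpina3n, Fga, Apoa1 and Fgb passed whichever 1 of the 8 animals was left out, whereas Aqp9, G6pc, Slco1b2 and Slc25a47 passed in none of these 8 fits.

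In 71 of the 2077 genes every KO ratio was below every flox ratio, and in 35 every KO ratio was above. These are 3.42%, against 3.41% of all genes tested, and 1.69%, against 0.879%. Without overlap an exact permutation test of 4 against 4 animals reaches its smallest 2-sided p, 0.0286, so this count alone sets the genes with low KO ratios no further apart than the table as a whole. Of the 35 lower genes 25 were without overlap.

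**Figure D4:**
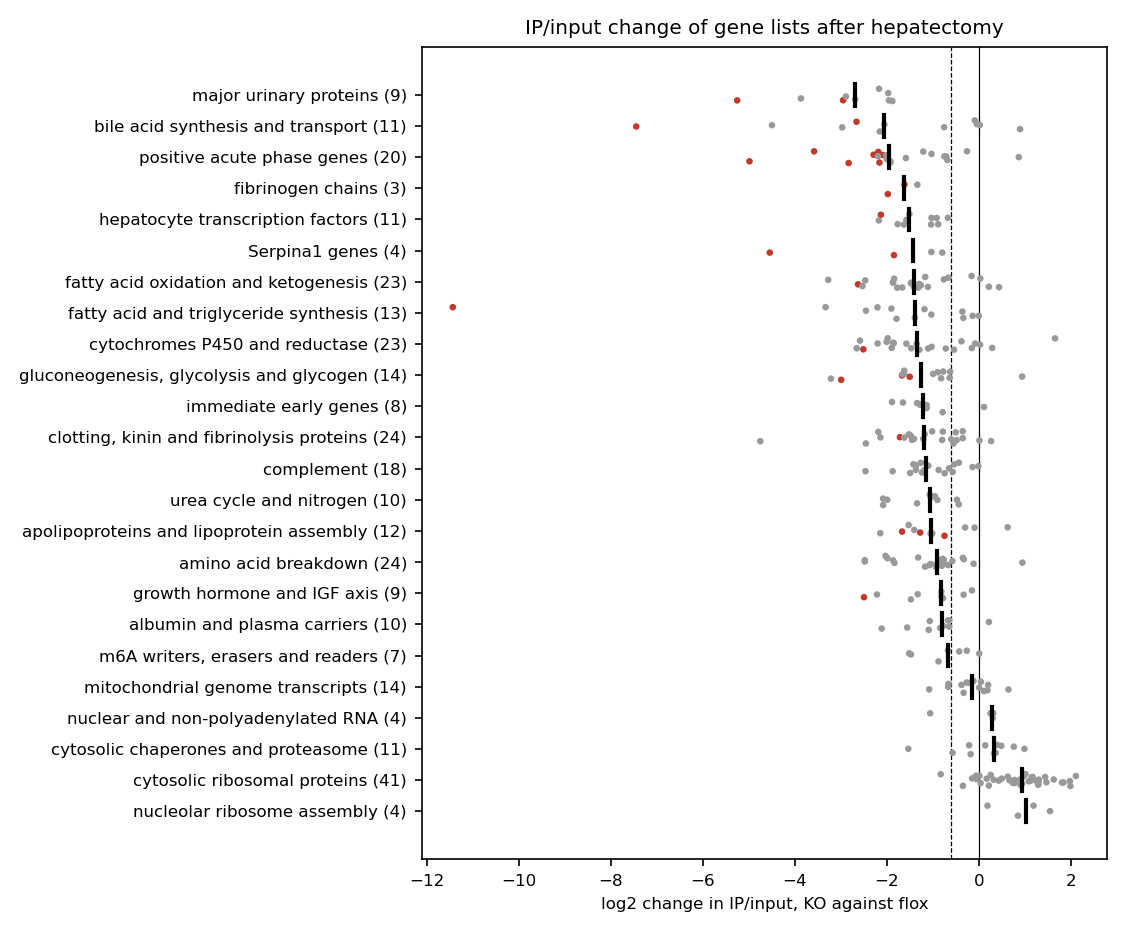
Log2 change in IP/input, KO against flox, of the members of each gene list (number of members in brackets), with the list median as a bar, genes past the threshold coloured and the median of the 2077 genes as a dashed line. Major urinary protein, bile acid and acute phase genes have the lowest medians, and ribosomal protein and nucleolar genes the highest.

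At the other end of the lists drawn stood the ribosomal protein and nucleolar genes, with no call by edgeR. Of 41 cytosolic ribosomal protein genes 0 passed by edgeR, 1 was called higher by DESeq2 and 1 had an unadjusted p under 0.05. The median change was 0.94, with 36 of 41 above 0 and 40 of 41 above the median of the 2077 genes. The list median per animal was 1.05, 0.40, 1.60 and 0.35 in KO livers, against -0.37, -0.46, -1.26 and -0.40 in flox livers, so every KO animal was above every flox animal. The median log2 ratio of KO over flox levels was 1.86 in IP and 0.35 in input. The list median stayed above 0 with every scaling, at 1.52 without TMM factors, 2.01 with upper-quartile factors and 1.67 with DESeq2's size factors, and between 0.67 and 1.41 when 1 animal was left out. The part of the shallow KO replicate 4 IP library, of cell mix and of copies of these genes in this pattern was not tested.

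Rpl6 had a change of 2.10 (adjusted p = 0.53), with flox replicate 2 at 5.53. In Rpl21 KO replicate 4 stood apart, with 2057, 1633, 2521 and 483 CPM in KO IP libraries, against 344, 479.8, 331 and 352 CPM in flox IP libraries, and ratios of 2.17, 2.83, 3.55 and -1.15 in KO livers, against 0.23, -0.21, -0.42 and 0.43 in flox livers (change 1.25, adjusted p = 0.34). Ribosomal protein genes have many processed pseudogenes, and their estimated counts are uncertain for that reason.

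Nucleolar proteins that assemble ribosomes had the highest median of the lists drawn, at 1.01 over 4 members, with 0 called by edgeR, 1 called higher by DESeq2 and 1 at an unadjusted p under 0.05. Nucleolin (Ncl) had 2793, 2648, 5249.6 and 477 CPM in KO IP libraries, against 432, 464, 572 and 573 CPM in flox IP libraries, and ratios of 2.27, 2.86, 2.53 and 0.35 in KO livers, against -0.32, -0.23, 0.88 and 0.48 in flox livers (change 1.54, adjusted p = 0.15). Npm1, nucleophosmin, had 2.14, 2.26, 3.03 and -1.32 in KO livers, against 0.17, 0.14, 0.49 and 0.89 in flox livers (change 1.18, adjusted p = 0.45). In both genes KO replicates 1, 2 and 3 were above all flox animals and KO replicate 4 was not. The list median per animal overlapped between groups, at 2.20, 1.37, 2.78 and -1.28 in KO livers, against -0.07, -0.05, 3.21 and 0.68 in flox livers, with flox replicate 3 above every KO animal. Of 11 cytosolic chaperone and proteasome genes 0 passed, 0 by DESeq2 and 0 at an unadjusted p under 0.05, with a median of 0.33. Hsp90aa1, an inducible chaperone, had 0.78, 0.92, 1.56 and -0.49 in KO livers, against -0.43, -0.51, -0.98 and -1.17 in flox livers (change 0.99, adjusted p = 0.25).

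RNA outside the cytosolic mRNA pool was also described. Malat1, a long noncoding RNA kept in the nucleus and known to carry m6A, had 10176, 8647, 9879 and 7257 CPM in KO IP libraries, against 3759.6, 3773, 4369.9 and 4195 CPM in flox IP libraries. Its ratios of 1.08, 0.96, 1.29 and 0.67 in KO livers were all above the 0.19, 0.17, 0.32 and 0.13 of flox livers, but the change was 0.25 with TMM factors (SE 0.22, adjusted p = 0.7), or 0.87 against the median of the 2077 genes. Of 14 transcripts of the mitochondrial genome 0 passed by edgeR or DESeq2, 1 had an unadjusted p under 0.05 and 1 was lower with the replicate block. Among them mt-Nd1 had 1.19, 1.33, 1.61 and -0.16 in KO livers, against -0.12, -0.18, -0.07 and 0.23 in flox livers (change 0.64, adjusted p = 0.18), with KO replicate 4 again the low animal. The 4 genes of nuclear and non-polyadenylated RNA had a median change of 0.27, with 0 called by either tool and 0 at an unadjusted p under 0.05.

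The 1 gene called higher, ENSMUSG00000098178 (chromosome 17, 39846958 to 39848788, plus strand), is a model of 1 exon without a matched symbol or biotype and is named after its value was seen. It had 4182, 844, 520.2 and 18166 CPM in KO IP libraries, against 336, 119.7, 119.9 and 468 CPM in flox IP libraries. Its ratios overlapped, with 1.97, -1.10, -1.14 and 3.43 in KO livers, against -0.77, -1.82, -3.91 and -0.09 in flox livers (change 3.12, SE 0.79, adjusted p = 0.04, or 0.13 with the replicate block), and it lost the call in 3 of the 8 fits that left out an animal. The 5 genes with the largest changes upward and no overlap did not pass. Tmsb4x, the actin-binding thymosin beta 4, had 1.50, 0.47, 5.52 and 3.35 in KO livers, against -0.52, 0.23, -1.94 and -2.30 in flox livers (change 2.74, adjusted p = 0.25). Tpm1, a tropomyosin, had a change of 2.26 (adjusted p = 0.42), Ccar1, a regulator of transcription and cell cycle, 1.93 (adjusted p = 0.39), and Map3k1, a kinase upstream of stress signalling, 1.78 (adjusted p = 0.8). Of the 35 genes with every KO animal above every flox animal 0 had an input at 0, and their lowest adjusted p was 0.25. At an unadjusted p under 0.05 there were 4 genes above 0 and 170 below among the 2077.

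Of 7 writers, erasers and readers of m6A 0 passed by edgeR or DESeq2 and 0 had an unadjusted p under 0.05. Zc3h13, a subunit of the writer complex, had a change of -0.88 (adjusted p = 0.77), Ythdf2, a reader that speeds mRNA decay, -1.52 (adjusted p = 0.85) and Ythdf3, another reader of the same family, -1.48 (adjusted p = 0.44). Immediate early genes, the first to be transcribed when hepatocytes leave rest, had 8 members with 0 called by either tool and 0 at an unadjusted p under 0.05. Jun split the flox animals, with 0.19, 0.02, -1.28 and -0.66 in KO livers, against 2.28, 2.65, -2.33 and -2.15 in flox livers (change -1.89, adjusted p = 0.26). Of the 24 cell cycle and replication genes 2 were members, with 0 called by either tool and 0 at an unadjusted p under 0.05. Mki67, a marker of dividing cells, had 1.21, 1.34, 1.14 and 2.20 in KO livers, against 1.62, -0.27, 0.06 and 1.10 in flox livers (change 0.57, adjusted p = 1).

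Sham-operated animals gave the same comparison with other livers. The input limit of 50 CPM was set on the hepatectomised groups, and 1597 of the 2077 genes also met it in both sham groups. The sham values below take all 2077 genes, so some rest on lower sham inputs. Of the 2077 genes 2 were lower in sham KO against sham flox livers and 0 were higher by edgeR, with 57 lower and 8 higher at an unadjusted p under 0.05 and 15 lower and 7 higher by DESeq2. Over all genes tested 0.0209% were lower and 0.0% higher. A fit with the animal as a replicate block gave 12 lower in sham livers and limma on per-animal ratios gave 0. The 2 genes were Serpina3k, at -1.35 (adjusted p = 0.031), which was also lower after hepatectomy, and Zfp62, a zinc finger gene named after its value was seen. Zfp62 had sham ratios of -0.91 ± 0.60 in KO and 5.88 ± 0.61 in flox livers (SD, n = 4 each), and a hepatectomy change of -0.22. Its sham input levels are not given here, and whether the high flox ratios rest on inputs near 0 was not tested. Of the 35 genes lower after hepatectomy 33 were below 0 in sham livers, and their median change was -2.42 after hepatectomy and -0.65 (from -4.22 to 0.96) in sham livers. The medians over the 2077 genes were -0.62 after hepatectomy and -0.35 in sham livers. The median ratio of the 35 genes was -0.47, -0.19, -0.00 and -0.48 in sham KO livers, against 0.22, 0.19, 0.16 and 0.18 in sham flox livers, again without overlap but closer together. Both comparisons were fitted with a shared estimate of spread, and the 35 genes were chosen on the hepatectomy contrast. In sham livers 34 of the 2077 genes had every KO ratio below every flox ratio and 38 every one above, while of all genes tested 1.01% and 1.84% did.

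**Figure D5:**
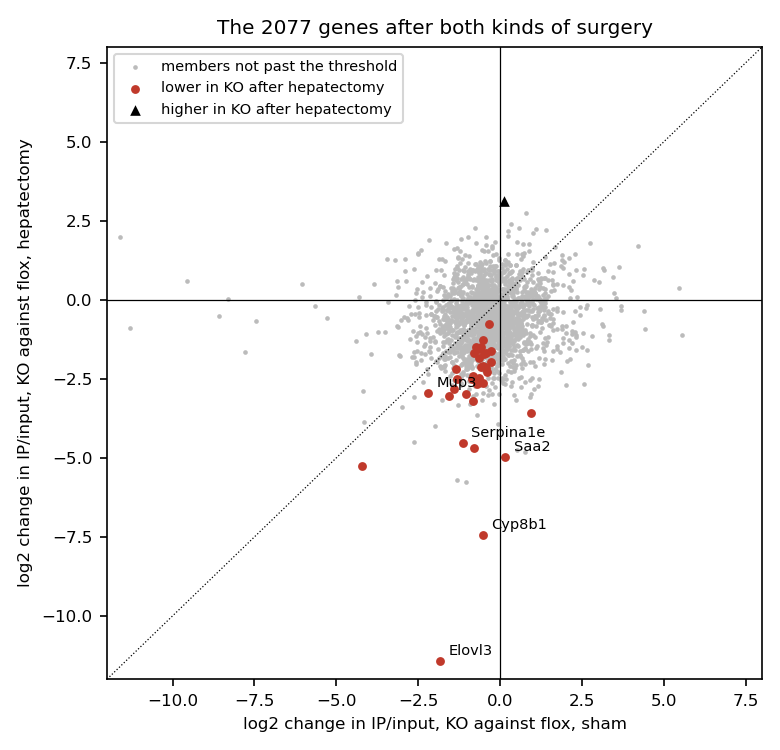
Log2 change in IP/input, KO against flox, after hepatectomy (vertical) and after sham surgery (horizontal) for the 2077 genes, with 4 of them outside the axes. The dotted line marks equal changes. The 35 genes lower after hepatectomy lie mostly below that line, with sham values around the median of -0.65.

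The difference between the 2 surgeries was tested as an interaction. It passed for 1 of the 2077 genes, Serpina1e, at -3.42 (SE 0.73, adjusted p = 0.041), against 0.0349% of all genes tested in that direction, and for 0 genes in the other, against 0.00698%. At an unadjusted p under 0.05 there were 47 genes below 0 and 18 above, DESeq2 called 7 and 11, a replicate block gave 12 and 3, and limma on per-animal ratios gave 0 and 0. No gene passed below 0 when hepatectomy KO replicate 3, hepatectomy flox replicate 1 or 2, or replicate 2 of either sham group was left out. Serpina1e had sham ratios of -2.18, 0.13, -0.95 and -2.41 in KO livers, against -0.32, -0.46, 0.38 and -0.36 in flox livers. Elovl3 and Cyp8b1 each had an interaction with an adjusted p of 0.063, Fga of 0.054 and Saa2 of 0.066. All 35 interactions of the lower genes were below 0, with a median of -1.55, against -0.41 over the 2077 genes, a direction that their choice on the hepatectomy contrast favours. The call of Serpina1e was itself lost in limma, with upper-quartile factors, in a fit on genes of 50 CPM or more alone and without some single animals. For the other lower genes the hepatectomy changes are not shown to differ from the sham changes. The ribosomal protein list had a sham median of -0.37, with list medians of 0.08, -0.12, -0.42 and 0.55 in sham KO livers, against -0.11, 0.89, 0.01 and 0.34 in sham flox livers, which overlapped.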

How the data were processed

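The authors deposited estimated counts per Ensembl gene for 32 liver libraries, without scaling between them. Per the submitters' processing notes, fastp and STAR were used. Their versions, the counting program, its annotation and strand setting and the build were not given in the sources used here. Values that were not whole made up 1.33% to 8.22% of a library, and all were rounded. Names came from a position match to RefSeq genes on GRCm38.p6 (34753 of 55421 genes). Per the labels' protocols, input and IP libraries were made with different kits.

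The main test was the quasi-likelihood F-test of edgeR 4.0.16 (R 4.3.3) over 8 groups of 4 libraries, with TMM factors, filterByExpr at a minimum count of 10, and Benjamini-Hochberg adjustment over 14328 genes at a threshold of 0.05. The change in IP/input is the log2 difference (KO IP minus KO input) minus (flox IP minus flox input), and per-animal ratios used CPM plus 1. The steps were tested on simulated data. Counting intervals, at 95%, cover counting error only, since reads copied by PCR were not told apart from separate molecules.

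Named were the fibrinogen genes, up to 15 genes per direction by size of change (past the threshold, no predicted model, no overlap between animals), 5 non-overlapping genes where fewer than 5 passed, and up to 4 genes with the smallest p of each list described. Some genes that this rule takes are not reported here. The members, the 39 gene lists and the tests were chosen with earlier results of these data known. Alternatives were other scalings and filters, DESeq2 1.42.0, limma 3.58.1 on per-animal ratios, the animal as a replicate block, the hepatectomy libraries alone and leaving out each animal. Per the labels, each input is paired with the IP library of the same animal. The correlation of their deviations from the group means, taken across genes, was -0.06 to 0.09 (median 0.03), and 10 of 16 inputs correlated best with their own IP library. No sequence is shown, since no transcript or genome sequence of the files' build was used here.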

Additional observations from a re-analysis of the deposited data

Results flagged for a closer look

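In groups of 4, a single animal can stand far from the other 3. Among the 82 named genes, 164 groups of 4 hepatectomised animals were examined for a gap between 1 animal and its nearest neighbour above Dixon's 95% critical value for the share of the whole range, and 10 were found. Chance gives about 1 in 20. The animals so marked by their log2 IP/input were KO replicate 1 in Gnmt (-2.23) and KO replicate 3 in Ythdf3 (1.67). In flox livers they were replicate 1 in Lpin1 (5.29), Ghr (3.42), Mup14 (1.22) and Egfr (0.79), replicate 2 in Rpl6 (5.53) and Pigr (0.0288), and replicate 4 in Saa1 (-2.52) and Fga (-0.28). No cause of these gaps was tested.

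The change of Serpina1e in KO against flox livers differed between surgeries by edgeR's interaction test, at -3.42 on the log2 scale (hepatectomy minus sham, adjusted p = 0.041). That call was lost with upper-quartile factors, in a fit on genes of 50 CPM or more alone, in limma on per-animal ratios and without some single animals. The per-animal values stand in the report.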

How the results depend on the processing

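The number of genes called depended on the scaling and on single animals. Against 35 lower and 1 higher after hepatectomy, omission of TMM factors gave 14 and 2, upper-quartile factors 3 and 1, DESeq2 27 and 8, a fit on genes of 50 CPM or more alone 17 and 0, no filter 30 and 2, and the hepatectomy libraries alone 45 and 0. With the animal as a replicate block edgeR gave 42 and 0, and limma on per-animal ratios, which holds the pairing, gave 4 and 0, or 0 and 0 with a pseudocount of 5. The limit given for the replicate block with Apob holds for its calls here too. Leaving out 1 animal gave 15 to 32 lower and 0 to 1 higher. Of the 35 genes 28 remained with the replicate block, 34 with the hepatectomy libraries alone, 18 by DESeq2, 14 without TMM factors and 3 with upper-quartile factors, and Cyp8b1 and Serpina1e passed in all of these alternatives except limma with a pseudocount of 5, where neither did. The 35 changes were below 0 in 8 of the alternatives, limma with a pseudocount of 5 not counted, except that of Apoe with upper-quartile factors (0.27). The median over the 2077 genes turned to 0.38 with upper-quartile factors and 0.0893 by DESeq2, and with upper-quartile factors Serpina1a turned to 0.20 and Zc3h13 to 0.00497. These alternatives scale by other reference levels, and no cause beyond that was tested.

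In sham livers, against 2 lower and 0 higher, DESeq2 gave 15 and 7, no filter 14 lower, the replicate block 12, no TMM factors, upper-quartile factors and the 50 CPM filter 1 each, and limma 0 with either pseudocount. Leaving out 1 animal gave 1 to 5 lower and 0 to 1 higher. For the interaction, against 1 lower and 0 higher, DESeq2 gave 7 and 11, no filter 8 and 5, the replicate block 12 and 3, upper-quartile factors 0 and 1, the 50 CPM filter 0 lower and limma 0 with either pseudocount. Leaving out 1 animal gave 0 to 4 lower and 0 to 2 higher. A limit of 20 CPM would keep 4018 genes and one of 100 CPM 1051.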

Other observations

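Several further gene lists gave no call among the genes kept. By edgeR 0 of 23 conjugation and Nrf2 target genes passed, with 1 at an unadjusted p under 0.05, 0 by DESeq2 and a median log2 change of -0.59, near the median of the 2077 genes. The 4 carboxylesterases had a median of -0.72 with 0 called and 1 at an unadjusted p under 0.05, and the 3 genes of cholesterol synthesis and uptake a median of -0.86 with 0 called and 0 at that level. Of 16 translation factors, 17 nuclear subunits of the respiratory chain, 19 genes of folding and stress in the endoplasmic reticulum and 12 of the translocon and secretory machinery, 0 passed by edgeR or DESeq2 and 0 had an unadjusted p under 0.05. Their medians were -0.16, -0.16, -0.40 and -0.70. Translation factors thus lay 0.45 above the median of the 2077 genes, less far than the ribosomal protein genes, at 1.55 above it. The circadian clock list had 1 member, at -1.13.

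The markers of liver cells that were themselves kept were 12 for hepatocytes, with 4 lower genes and a median of -1.06, and 3 for macrophages, with a median of 1.24 and 0 called by either tool. Endothelial markers and stellate and fibroblast markers had 1 each among the 2077 genes, and markers of bile duct cells and of blood cells had none.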
